A study of Arabidopsis thaliana with 9 samples.

Results

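The strigolactone receptor D14 (AT3G03990), the F-box protein MAX2 (AT2G42620) and the transcriptional repressors SMXL6 (AT1G07200), SMXL7 (AT2G29970) and SMXL8 (AT2G40130) were followed across the cell types of the Arabidopsis thaliana hypocotyl in single-nucleus RNA-seq data. These 5 genes were chosen by their gene identifiers, not by a threshold on their counts, from 38115 genes counted in the plate libraries and from 36957 counted in the WT and d14 libraries. Strigolactones are carotenoid-derived hormones best known for repressing shoot branching, and they also act on secondary growth of the stem and hypocotyl. The hydrolase D14 binds and cleaves the hormone, then docks onto MAX2, the substrate-binding subunit of an SCF-type ubiquitin ligase. The complex marks SMXL6, SMXL7 and SMXL8 for degradation, and these proteins otherwise hold target genes silent together with co-repressors of the TOPLESS family.

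The data came from 9 libraries in 5 groups. A droplet library of all hypocotyl nuclei, sequenced from the 3′ end (10x all hypocotyl), was made from 4-week-old Col-0 plants that carried both PXY:H4-GFP and SMXL5:H2B-RFP, reporters of the proximal and the distal side of the cambium. Of the same reporter line and age, 3 plates of nuclei gated on GFP and/or RFP (VASA cambium) and 3 plates of ungated nuclei (VASA all hypocotyl) were profiled by VASA-seq, which reads along the whole transcript. The remaining 2 droplet libraries came from 19-day-old hypocotyls without reporters, 1 of Col-0 wild type (WT) and 1 of d14-1 (d14), a T-DNA insertion line in the D14 gene. All plants were grown with 10 h of light and 14 h of darkness, and each library or gate was made from pooled hypocotyls, so that the 3 plates of a gate share their source and p-values measure only the spread between plates.

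After the limits on counts per nucleus, 5175 nuclei remained, with 277 to 313 nuclei per VASA cambium plate, 181 to 293 per VASA all hypocotyl plate, 2081 in the 10x all hypocotyl library, 684 in WT and 822 in d14. Plates held 1710013 to 2445623 counts in all and a median of 4086 to 6059 counts per nucleus, against 1852 to 2029.5 in the droplet libraries. The gate was set on the fluorescence of reporter proteins, not on RNA. Nuclei with markers of outer tissues made up 6.24% of nuclei on VASA cambium plates and 18.1% on VASA all hypocotyl plates. The gate was not visible in the RNA of the reporters and of their genes: for cambium minus all hypocotyl plates, the log2 difference was -0.36 for H4GFP (edgeR quasi-likelihood test, Benjamini-Hochberg adjusted p = 0.533), 0.06 for H2BRFP (adjusted p = 0.954), -0.24 for PXY (AT5G61480, adjusted p = 0.556) and -0.09 for SMXL5 (AT5G57130, adjusted p = 0.839). The plates are therefore named by their labels, and since each gate was a separate preparation, gate and preparation cannot be told apart. D14 itself was not lower in the library labelled d14 than in WT. Counts from the 3′ end do not read an insertion, so this gene does not check the label.

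The 5 genes lie apart from each other on chromosomes 1, 2 and 3 of the TAIR10.1 assembly. D14 spans chr3:1033579-1035237 on the plus strand (1659 bases), MAX2 chr2:17756069-17758468 on the plus strand (2400 bases), SMXL6 chr1:2208477-2212718 on the minus strand (4242 bases), SMXL7 chr2:12776208-12780069 on the plus strand (3862 bases) and SMXL8 chr2:16765709-16769279 on the plus strand (3571 bases). Only SMXL8 is overlapped by another annotated gene, the antisense RNA AT2G09115, which received 2 counts on the plates and 0 counts in the droplet libraries.

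SMXL6, SMXL7 and SMXL8 are shown with the 300 bases before their annotated starts, because the counts of these 3 genes were all lower in d14 than in WT. SMXL6 is known in Arabidopsis to bind DNA as well as proteins, at the motif ATAACAA among others, and the promoters of SMXL6, SMXL7 and SMXL8 are among its known targets. The sequences are from RefSeq (TAIR10.1), read 5′ to 3′ on the strand of the gene, at chr1:2212719-2213018 on the minus strand for SMXL6, chr2:12775908-12776207 on the plus strand for SMXL7 and chr2:16765409-16765708 on the plus strand for SMXL8. Capitals mark ATAACAA or its reverse complement TTGTTAT.
SMXL6: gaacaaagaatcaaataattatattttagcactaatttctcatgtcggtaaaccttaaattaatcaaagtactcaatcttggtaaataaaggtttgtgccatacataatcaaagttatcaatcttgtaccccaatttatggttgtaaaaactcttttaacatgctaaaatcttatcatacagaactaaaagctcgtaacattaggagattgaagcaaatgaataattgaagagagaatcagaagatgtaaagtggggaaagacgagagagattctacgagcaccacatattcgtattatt
SMXL7: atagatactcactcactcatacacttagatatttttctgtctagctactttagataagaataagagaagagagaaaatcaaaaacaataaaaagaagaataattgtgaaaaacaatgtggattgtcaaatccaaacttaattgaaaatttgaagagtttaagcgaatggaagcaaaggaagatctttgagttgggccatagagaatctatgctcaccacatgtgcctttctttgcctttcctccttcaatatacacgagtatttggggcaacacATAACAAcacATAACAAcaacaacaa
SMXL8: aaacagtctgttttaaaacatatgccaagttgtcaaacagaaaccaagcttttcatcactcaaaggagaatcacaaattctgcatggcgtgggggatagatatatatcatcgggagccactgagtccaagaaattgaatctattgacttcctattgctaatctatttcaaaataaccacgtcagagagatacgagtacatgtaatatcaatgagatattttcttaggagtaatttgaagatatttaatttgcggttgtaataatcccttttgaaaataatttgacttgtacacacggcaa
The SMXL7 stretch held the motif at 2 places, starting 26 and 16 bases before the gene, and the SMXL6 and SMXL8 stretches held none in this window, nor did those of D14 and MAX2. Of 27443 protein-coding genes, 14.1% held at least 1 copy in a window of this length. Within 1500 bases before the gene, SMXL7 held 2 copies, SMXL8 and MAX2 1 each, and SMXL6 and D14 0. At that length 50.5% of genes held at least 1. A match of these letters is a description and not a bound site.

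All 5 genes were detected in every library, and SMXL7 was the most abundant. Because VASA-seq reads along the transcript, levels on the plates were divided by gene length to set genes side by side. In CPM (counts scaled to 1000000 per library) per kilobase, SMXL7 reached 76.9 ± 10.8 (SD, n = 3 plates) in VASA cambium and 85.5 ± 6.75 in VASA all hypocotyl. The level per length was 28.4 ± 2.44 and 52.5 ± 8.58 for SMXL8, 30.0 ± 2.91 and 33.3 ± 2.98 for MAX2, and 25.1 ± 3.44 and 25.9 ± 2.56 for SMXL6. D14, the receptor, was lowest at 9.58 ± 2.47 and 12.6 ± 2.70 CPM per kilobase. In VASA all hypocotyl every gap between SMXL7, SMXL8, MAX2, SMXL6 and D14, in that order of levels per length, exceeded the SDs of the neighbours added together. In VASA cambium MAX2, SMXL8 and SMXL6 lay within their spread of each other.

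D14 had 20.5, 14.6 and 12.6 CPM on the VASA cambium plates and 19.5, 26.0 and 17.4 CPM on the VASA all hypocotyl plates. It reached 44.1 CPM in the 10x all hypocotyl library, 15.3 CPM in WT and 14.9 CPM in d14, levels that rested on 203, 26 and 31 counts. MAX2 had 64.2, 77.5 and 74.6 CPM on VASA cambium plates and 81.4, 86.4 and 72.2 CPM on VASA all hypocotyl plates. The plates of both gates overlapped for D14 and for MAX2. MAX2 stood at 29.5 CPM in the 10x all hypocotyl library, 13.6 CPM in WT and 21.6 CPM in d14.

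SMXL6 had 93.6, 122 and 104 CPM on VASA cambium plates and 97.4, 116 and 117 CPM on VASA all hypocotyl plates, with 33.6 CPM in the 10x all hypocotyl library, 51.3 CPM in WT and 27.4 CPM in d14. For SMXL7 the same plates gave 273, 273 and 345 CPM and 300.3, 348 and 343 CPM, and the droplet libraries 168, 159 and 90.8 CPM. Neither gene separated the gates. SMXL8 had 93.6, 100.2 and 111 CPM on VASA cambium plates and 170, 170 and 223 CPM on VASA all hypocotyl plates, and there was no overlap between them. Its droplet levels were 55.1 CPM in the 10x all hypocotyl library, 99.0 CPM in WT and 38.9 CPM in d14.

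**Figure D1:**
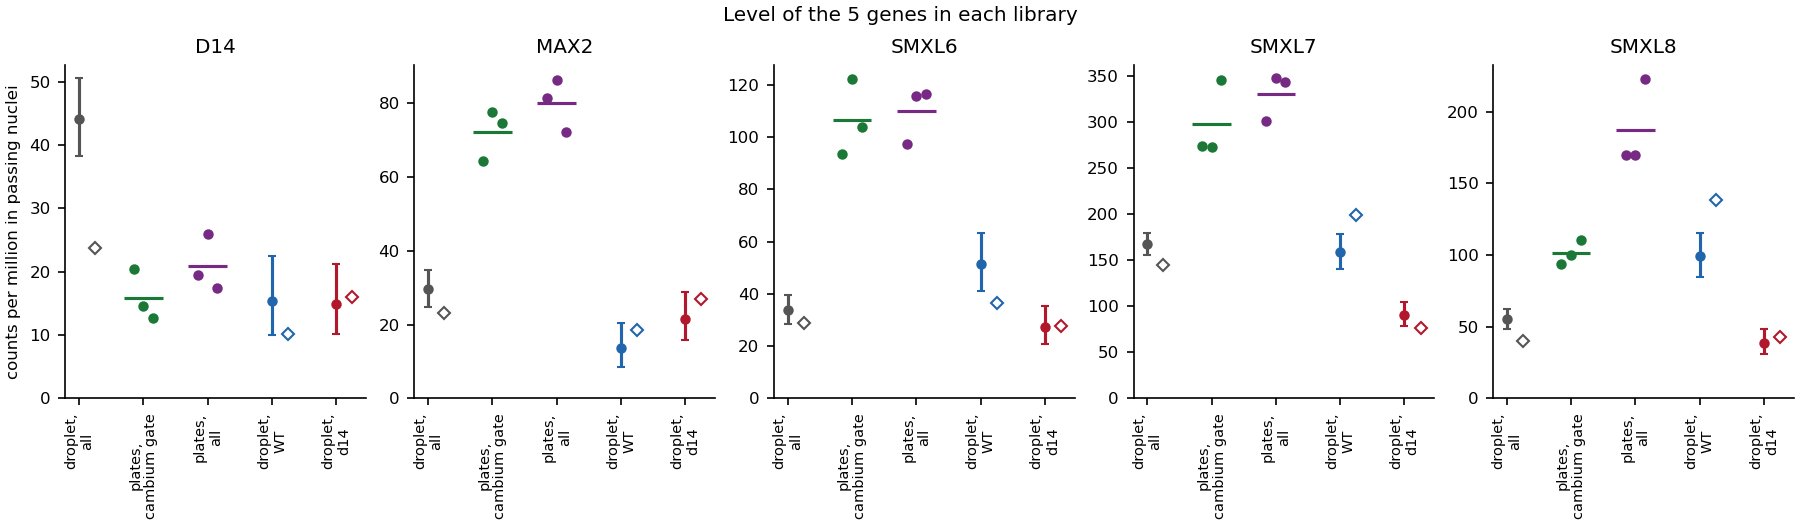
Level of each gene in CPM (vertical axes) in each of the 9 libraries: circles are libraries, horizontal lines are means of 3 plates, bars are exact Poisson intervals of droplet libraries, and open diamonds are barcodes with 1 to 100 counts. SMXL8 plates of the cambium gate (93.6 to 111) lie below the other plates (170 to 223), and SMXL6, SMXL7 and SMXL8 lie lower in d14 than in WT.

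Free RNA carried all 5 genes in the droplet libraries. In barcodes with 1 to 100 counts of the 10x all hypocotyl library, D14 had 23.7 CPM, MAX2 23.0, SMXL6 29.0, SMXL7 145 and SMXL8 40.2 CPM, all below the level in nuclei. In WT these barcodes exceeded nuclei for MAX2 (18.7 CPM), SMXL7 (199 CPM) and SMXL8 (138 CPM), but not for D14 (10.2 CPM) and SMXL6 (36.5 CPM). In d14 they exceeded nuclei for MAX2, and also for D14 (16.0 CPM), SMXL6 (27.8 CPM) and SMXL8 (43.0 CPM), but not for SMXL7 (76.0 CPM). Class levels near or under these values, such as 10.7 CPM of D14 in vessel-like nuclei of the 10x all hypocotyl library, are not read as expression. The 6 blank wells of a plate yielded 0 or 1 count of a gene in all. Over all plates D14 had 0 such counts, MAX2 and SMXL7 2 each, and SMXL6 and SMXL8 1 each. Fewer expressing nuclei and less RNA per nucleus cannot be told apart in any of the library levels.

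The gate comparison asked which genes differ between reporter-gated nuclei and all hypocotyl nuclei. SMXL8 was the only one of the 5 genes called, at an adjusted p below 0.05, and it was lower by 0.87 ± 0.17 on the log2 scale (SE, a log2 difference of -0.87, 1.83-fold) in VASA cambium plates, with an edgeR adjusted p of 0.0197. Among 16134 genes tested, 3.13% were called, 1.77% as lower, and 18.9% had gates without overlapping plates. For the other repressors the log2 difference was -0.03 ± 0.16 for SMXL6 and -0.14 ± 0.15 for SMXL7, with edgeR adjusted p of 0.969 and 0.748. MAX2 differed by -0.14 ± 0.14 (adjusted p = 0.754, edgeR) and D14 by -0.40 ± 0.26 (adjusted p = 0.551, edgeR). Of 30 further genes of strigolactone synthesis, signalling and response, 23 were tested and 0 were called by edgeR in either direction, with 4 at an unadjusted p below 0.05 and 1, the carotenoid cleavage enzyme gene MAX4, called by DESeq2 (named after its value was seen). Their median log2 difference was 0.02, against -0.0042 over all genes. The SMXL8 call did not survive the loss of any single VASA cambium plate: without replicate 1 the log2 difference was -0.79 (edgeR adjusted p = 0.0754), without replicate 2 -0.88 (adjusted p = 0.0637) and without replicate 3 -0.95 (adjusted p = 0.0518).

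Nuclei with the markers of outer tissues, where SMXL8 is low, made up 55 of 882 nuclei (6.24%) on VASA cambium plates and 128 of 706 (18.1%) on VASA all hypocotyl plates. These nuclei were thus scarcer on the plates where SMXL8 was lower, and the effect of the shares was not tested. Levels of SMXL8 were also taken within classes. In nuclei of companion cell-like clusters its level was 187 ± 52.2 CPM in VASA cambium and 367 ± 79.1 in VASA all hypocotyl (SD, n = 3 plates each). Xylem parenchyma-like nuclei gave 137 ± 147 and 361 ± 132 CPM, and phloem parenchyma-like nuclei 79.2 ± 54.6 and 235 ± 119 CPM. Cortex-like nuclei, with 22.5 ± 14.7 and 18.1 ± 11.3 CPM, and dividing-like nuclei, with 92.5 ± 55.1 and 98.8 ± 94.7 CPM, were within 1 SD of each other. CSC-like nuclei gave 148, 0 and 58.5 CPM on VASA cambium plates and 161, 131 and 333 CPM on VASA all hypocotyl plates. Unnamed nuclei gave 90.2, 124 and 105 CPM and 192, 198 and 239 CPM. Over the nuclei of the vascular classes alone, SMXL8 differed by -1.45 ± 0.34 on the log2 scale, which did not pass (edgeR adjusted p = 0.142). Of 7783 genes tested there, 0.206% were called. A test of whether the gate difference itself varied between vascular and outer nuclei, in which 0.0108% of genes were called, gave -1.21 ± 0.82 for SMXL8 (edgeR adjusted p = 0.980) and called none of the 5 genes. At an unadjusted p below 0.05 this count was also 0.

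Cell classes were rebuilt by clustering nuclei and naming clusters from marker lists, with the 5 genes left out of the genes used to cluster. A class is written "-like" where its cluster passed the marker rule, and 1013 of 1588 plate nuclei and 1126 of 2081 nuclei of the 10x all hypocotyl library stayed in unnamed clusters. CSC-like denotes nuclei with markers of cambium stem cells. Differences from other accounts of these cell types may come from these rebuilt names. The names also depend on the settings. On the plates, CSC-like and endodermis-like clusters were not named at a resolution of 1.2 or with a minimum of 2500 counts, endodermis-like clusters also not without the highest doublet scores, and xylem parenchyma-like nuclei numbered 113, or 222 at a resolution of 1.2. In the 10x all hypocotyl library 186 of the 216 periderm-like nuclei formed 1 cluster whose second name was endodermis, and without the highest doublet scores the library had 25 periderm-like and 176 endodermis-like nuclei. Among the named clusters, 1 cortex-like plate cluster also had the epidermal wax gene KCS6 among its leading genes.

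D14 was spread thinly and had its highest plate means in cortex-like and periderm-like nuclei, but not in endodermis-like nuclei, also an outer class. Its mean was 59.2 ± 36.8 CPM in cortex-like nuclei (SD, n = 6 plates), 47.4 ± 5.25 in periderm-like nuclei (n = 3 plates with at least 3 such nuclei) and 32.6 ± 21.8 in companion cell-like nuclei. The periderm-like value rests on 1, 2 and 2 counts, so its small SD is not read as precision. Phloem parenchyma-like nuclei had 23.8 ± 19.7 CPM, xylem parenchyma-like nuclei 16.1 ± 4.05, CSC-like nuclei 10.8 ± 9.47, dividing-like nuclei 4.36 ± 6.82 and endodermis-like nuclei 4.19 ± 5.79. No class differed from the next one in this order beyond their SDs. In the 10x all hypocotyl library D14 was highest in companion cell-like nuclei, at 133 CPM (exact Poisson 95% interval 79.8 to 207, 19 counts), followed by epidermis-like nuclei at 85.2 CPM (55.7 to 125, 26 counts). Vessel-like nuclei had 10.7 CPM of D14 (2.20 to 31.2, 3 counts) and CSC-like nuclei 24.4 CPM (11.7 to 45.0). Intervals here and below cover counting error only. WT and d14 held too few D14 counts to rank classes, with 6 counts in epidermis-like nuclei of WT and 8 in endodermis-like nuclei of d14 as the highest counts of a named class.

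MAX2 was highest in xylem parenchyma-like nuclei in the plates, at 155 ± 82.8 CPM (SD, n = 6 plates), with 91.7 ± 70.8 in phloem parenchyma-like, 79.7 ± 41.5 in endodermis-like (n = 5 plates), 78.8 ± 35.1 in CSC-like and 72.9 ± 19.4 in companion cell-like nuclei. Cortex-like nuclei had 55.0 ± 30.1 CPM, dividing-like nuclei 51.0 ± 21.6 and periderm-like nuclei 16.4 ± 14.3, and no neighbours in this order differed beyond their spread. Both xylem parenchyma-like plate clusters carried MAX2, at 180 CPM in the one led by ACL5 and LAX2 and at 139 CPM in the one led by PHO1 and MYB48. In the 10x all hypocotyl library xylem parenchyma-like nuclei had 54.0 CPM (33.0 to 83.4, 20 counts) and periderm-like nuclei 9.31 CPM (2.54 to 23.8, 4 counts). The highest value, 73.5 CPM in dividing-like nuclei, rested on 4 counts in 20 nuclei, and phloem parenchyma-like nuclei had 58.2 CPM (25.1 to 115, 8 counts).

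On the plates and in the 10x all hypocotyl library, companion cell-like nuclei had the highest mean of each of the 3 repressors. SMXL6 reached 304 ± 108 CPM in companion cell-like nuclei on the plates (SD, n = 6 plates), and this was the only step between neighbouring classes, over all 5 genes, that exceeded the spread of both. Endodermis-like nuclei came next at 124 ± 62.8 CPM, and CSC-like nuclei were lowest at 40.9 ± 5.78. SMXL6 was again highest in companion cell-like nuclei of the 10x all hypocotyl library, at 126 CPM (74.4 to 199), and in the 11 such nuclei of WT, at 358 CPM (164 to 679, 9 counts).

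SMXL7 was counted in every class on the plates. Companion cell-like nuclei led with 716 ± 281 CPM, followed by xylem parenchyma-like at 453 ± 83.0, CSC-like at 369 ± 93.9, phloem parenchyma-like at 325 ± 104 and dividing-like nuclei at 226 ± 132. Endodermis-like, cortex-like and periderm-like nuclei were lowest, at 202 ± 96.8, 162 ± 46.9 and 109 ± 82.7 CPM. Companion cell-like nuclei of the 10x all hypocotyl library had 454 CPM (350 to 578), and xylem parenchyma-like nuclei at 311 CPM (256 to 373). In WT the companion cell-like nuclei reached 1033 CPM (675 to 1514, 26 counts), and in d14 they had 152 CPM (5 counts), below 166 CPM in vessel-like and 159 CPM in periderm-like nuclei. Some droplet levels lay under free RNA and are not read as expression. In WT, against 199 CPM, these were endodermis-like (128), CSC-like (142), epidermis-like (142), periderm-like (146), dividing-like (182) and vessel-like nuclei (193 CPM). Outer classes of the 10x all hypocotyl library had 87.1 CPM, against 145.

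SMXL8 had 277 ± 115 CPM in companion cell-like, 249 ± 175 in xylem parenchyma-like, 157 ± 119 in phloem parenchyma-like, 139 ± 113 in CSC-like and 95.6 ± 69.4 in dividing-like nuclei, but 20.3 ± 12.0 in cortex-like, 18.1 ± 20.0 in endodermis-like and 14.6 ± 25.3 CPM in periderm-like nuclei. In the 10x all hypocotyl library its level ran from 202 CPM in companion cell-like nuclei (136 to 291) to 3.28 CPM in epidermis-like nuclei (0.083 to 18.3, 1 count), with 92.6 CPM in vessel-like and 14.0 in periderm-like nuclei. Dividing-like nuclei had 0 of 54402 counts there, which allows up to 55.1 CPM. Phloem parenchyma-like nuclei of that library had only 14.6 CPM (1.76 to 52.6, 2 counts). SMXL8 was also high in unnamed plate clusters, at 241 CPM in the 71 nuclei led by ANT and AIL6, regulators of organ growth, and at 217 CPM in 136 nuclei led by TET5 and GSL04. ANT is among the CSC markers used here, and the authors of the data place TET5 in developing phloem. Neither cluster counts toward the CSC-like or phloem levels given here. In WT it was at 203 CPM in phloem parenchyma-like, 202 in CSC-like and 199 in companion cell-like nuclei, and in d14 at 125 CPM in CSC-like and 60.6 in companion cell-like nuclei.

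**Figure D2:**
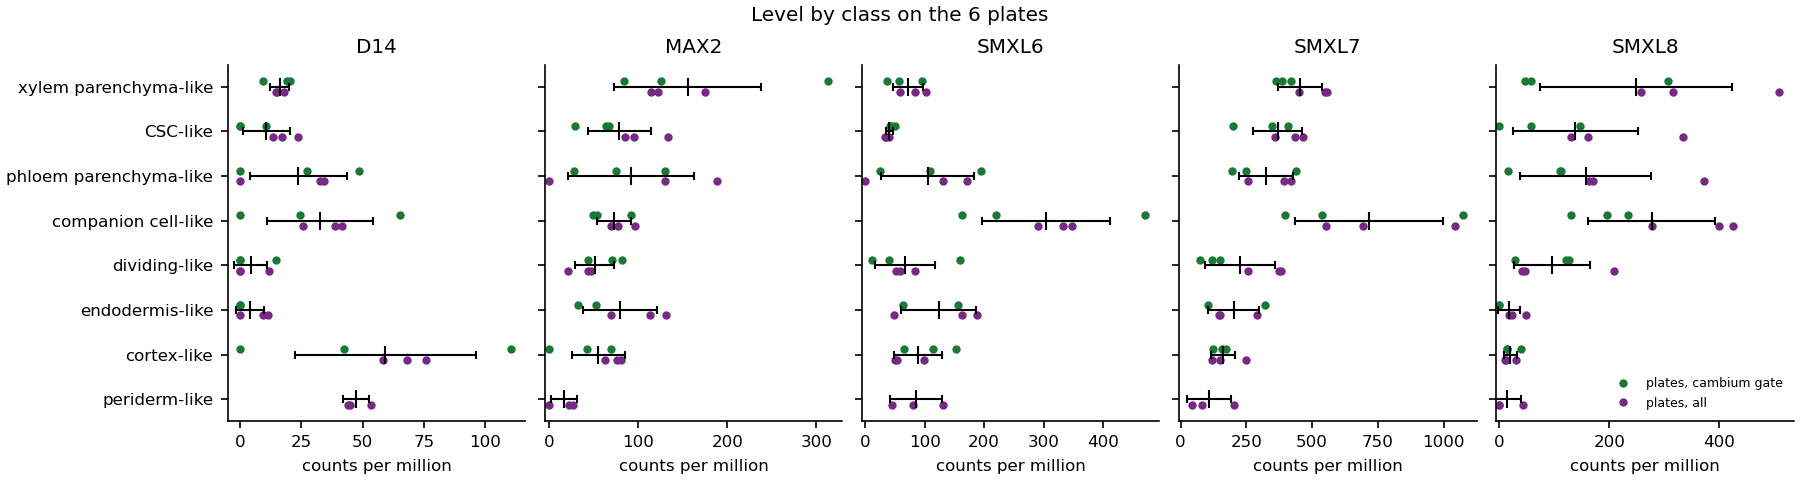
Level of each gene by class on the 6 plates, in CPM (horizontal axes): points are plates with at least 3 nuclei of the class, vertical ticks and bars are the mean and SD over plates. SMXL6 is highest in companion cell-like nuclei (304), and SMXL8 lies at 14.6 to 20.3 in periderm-, endodermis- and cortex-like nuclei against 95.6 to 277 in the other classes.

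Counts were then summed per plate over xylem classes (113 nuclei) and over phloem classes (124 nuclei), and these 2 sums were compared within plates. SMXL6 ranged from 37.1 to 102 CPM in xylem sums (median 71.0) and from 141 to 272 CPM in phloem sums (median 236), with no overlap. The log2 difference, xylem minus phloem, was -1.65 ± 0.27 (edgeR adjusted p = 1.2e-04, 3.15-fold lower in xylem). Clusters were drawn from the same nuclei, so many genes separate them: 32.5% of 2019 genes tested were called and 17.2% were called lower. MAX2 ran the other way, from 83.5 to 313 CPM in xylem (median 124) and from 43.5 to 125 CPM in phloem (median 90.0), and its log2 difference of 0.74 ± 0.30 did not pass (edgeR adjusted p = 0.0715). It passed in 2 of 6 omissions of a plate: without VASA cambium replicate 3 (log2 difference 0.88, edgeR adjusted p = 0.0492) and without VASA all hypocotyl replicate 1 (0.98, adjusted p = 0.0321). Over all 6 omissions the log2 difference of MAX2 went down to 0.49 and the edgeR adjusted p up to 0.324. The highest xylem level, 313 CPM from 46 counts, was that of VASA cambium replicate 2, and the next plate had 174 CPM. SMXL7 and SMXL8 gave -0.24 ± 0.21 and 0.01 ± 0.32 (edgeR adjusted p = 0.436 and 0.987). D14, with 13 counts in xylem and 20 in phloem sums, was below the filter on low counts. Of the 30 pathway genes 6 were tested and 0 called by edgeR or DESeq2, with 2 at an unadjusted p below 0.05 and a median log2 difference of 0.09, against 0.02 over all genes.

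On the plates the xylem classes were xylem parenchyma-like alone, whereas in the 10x all hypocotyl library they joined 167 xylem parenchyma-like and 100 vessel-like nuclei. This library, which has no replicate, gave ratios of xylem to phloem CPM of 0.259 for SMXL6 (exact Clopper-Pearson 95% interval 0.127 to 0.510) and 0.349 for D14 (0.173 to 0.695), both below 1. MAX2 stood at 1.18 (0.573 to 2.60), SMXL7 at 0.838 (0.645 to 1.09) and SMXL8 at 0.765 (0.484 to 1.23), intervals that all hold 1. For SMXL6 the ratio was 0.581 in WT (0.236 to 1.36) and 0.951 in d14 (0.312 to 3.45), and both intervals hold 1.

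Vascular classes, which joined xylem, phloem and CSC-like nuclei (325 nuclei), and outer classes, which joined cortex-, endodermis- and periderm-like nuclei (183 nuclei), separated SMXL8 and SMXL7. SMXL8 ranged from 50.2 to 384 CPM in vascular sums (median 199) and from 9.04 to 28.4 CPM in outer sums (median 19.7), and SMXL7 from 334 to 551 CPM (median 495) and from 118 to 215 CPM (median 179). No plates overlapped for either gene. Vascular minus outer, the log2 difference was 3.40 ± 0.33 for SMXL8 (edgeR adjusted p = 4.6e-08, 10.6-fold) and 1.47 ± 0.19 for SMXL7 (edgeR adjusted p = 1.8e-06, 2.77-fold). Of 6698 genes tested, 34.6% were called, 17.6% as higher in vascular sums and 17.0% as lower.

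MAX2 ranged from 78.0 to 182 CPM in vascular (median 104) and from 9.34 to 78.3 CPM in outer sums (median 65.8), with a log2 difference of 0.83 ± 0.30 (edgeR adjusted p = 0.0354). This call was lost without VASA cambium replicate 2 (0.55, edgeR adjusted p = 0.0843) and without VASA all hypocotyl replicate 1 (0.95, adjusted p = 0.0535), replicate 2 (0.92, adjusted p = 0.0527) or replicate 3 (0.80, adjusted p = 0.0830), and with DESeq2 (0.88, adjusted p = 0.0690). SMXL6, high in companion cell-like but also in endodermis-like nuclei, differed by 0.26 ± 0.25 (edgeR adjusted p = 0.451). D14 was not tested, with 39 counts in vascular and 52 in outer sums, and means of 19.4 ± 3.69 and 41.3 ± 23.5 CPM (SD, n = 6 plates). VASA cambium replicate 2 was the only plate with less D14 in outer (0 CPM) than in vascular sums (22.0 CPM). With this contrary plate left out D14 passed the filter, with a log2 difference of -1.31 ± 0.37. The plate was singled out by its D14 values, so that difference is no test of D14. With no filter and all plates D14 was not called (-1.04, edgeR adjusted p = 0.0555).

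Of the 30 pathway genes 11 were tested in this contrast, of which 1 was called higher and 4 lower in vascular than in outer sums (3 of the 11 with DESeq2). Their median log2 difference was -0.43, against 0.03 over all genes tested. CLAMT, the methyltransferase that makes methyl carlactonoate, was higher by 3.26 ± 0.45 on the log2 scale (edgeR adjusted p = 5.6e-06). SMAX1, the relative of SMXL6 to SMXL8 that acts in karrikin signalling, was lower, with a log2 difference of -1.50 ± 0.25 (edgeR adjusted p = 6.2e-05). The SCF subunit gene ASK1 differed by -1.20 ± 0.45, and the co-repressor genes TPR2 and TPR4 by -0.55 ± 0.20 and -0.55 ± 0.17, with edgeR adjusted p of 0.0426, 0.0363 and 0.0136.

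In the 10x all hypocotyl library, where the outer classes were periderm- and epidermis-like, the ratio of vascular to outer CPM was 8.77 for SMXL8 (4.12 to 22.3), 2.99 for SMXL7 (2.28 to 3.96) and 2.33 for MAX2 (1.22 to 4.80). SMXL6 stood at 1.31 (0.766 to 2.34), and D14 was the only gene below 1, at 0.641 (0.414 to 0.998). In WT the ratio was 4.18 for SMXL8 (2.52 to 7.22) and 2.17 for SMXL7 (1.59 to 2.99), with 1.00 for SMXL6.

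WT and d14 were compared to ask how these transcripts differ in a mutant of the receptor gene. With 1 library per genotype there is no replicate check, and the ratios compare 2 libraries. SMXL6 had 87 counts in WT and 57 in d14, a ratio of CPM, d14 to WT, of 0.534 (exact Clopper-Pearson 95% interval 0.376 to 0.755). SMXL7 had 269 and 189 counts, a ratio of 0.573 (0.473 to 0.693), and SMXL8 168 and 81 counts, a ratio of 0.393 (0.298 to 0.515). The intervals of 3 of the 5 genes lay below 1, which held for 13.0% of the 12992 genes that had 50 or more counts in the 2 libraries summed, and 12.3% had an interval above 1. A ratio of at most 0.5 with such an interval, as SMXL8 had, was found for 2.73% of genes. MAX2 had 23 and 45 counts (ratio 1.60, 0.945 to 2.76) and D14 26 and 31 counts (ratio 0.972, 0.559 to 1.70), and both intervals hold 1. The MAX2 interval depended on the limit on counts. It lay above 1 with at least 1000 counts per nucleus (1.69, 1.14 to 2.54) and in barcodes with at least 500 (1.69, 1.25 to 2.30). With at least 2500 counts per nucleus it held 1 (1.31, 0.594 to 3.05).

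Barcodes with 1 to 100 counts, which hold free RNA, had ratios of 0.311 for SMXL8 (0.223 to 0.429), 0.381 for SMXL7 (0.295 to 0.488) and 0.763 for SMXL6 (0.470 to 1.23). The part of this free RNA in the ratios of the nuclei was not tested. Applying the WT cluster shares to both libraries left the ratios at 0.565 for SMXL6, 0.515 for SMXL7 and 0.394 for SMXL8.

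Over all 9 named classes, whatever their counts, CPM was lower in d14 than in WT in 8 for SMXL7, 7 for SMXL8, 7 for SMXL6, 3 for MAX2 and 1 for D14. Periderm-like nuclei had a ratio of 1.09 for SMXL7 (6 and 6 counts), and epidermis-like nuclei one of 1.18 for SMXL8 (6 and 6 counts). Classes with at least 20 counts over both libraries are given below as values. A class can pass this limit through WT alone, as companion cell-like nuclei did for SMXL7 and phloem parenchyma-like nuclei for SMXL8, so these ratios are no support for a difference. For SMXL7 the ratio was 0.147 in companion cell-like nuclei (0.044 to 0.388, 26 counts in WT and 5 in d14), 0.294 in phloem parenchyma-like (0.108 to 0.688, 28 and 7 counts), 0.378 in xylem parenchyma-like (0.227 to 0.617, 46 and 28 counts) and 0.451 in epidermis-like nuclei (0.218 to 0.877). Vessel-like nuclei had a ratio of 0.863 and CSC-like nuclei of 0.722, with intervals that hold 1. SMXL8 had a ratio of 0.087 in phloem parenchyma-like nuclei (0.010 to 0.346, 27 and 2 counts), 0.508 in xylem parenchyma-like (0.257 to 0.991) and 0.619 in CSC-like nuclei (0.297 to 1.29). SMXL6 reached 20 counts in endodermis-like nuclei alone among named classes, with a ratio of 0.727.

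**Figure D3:**
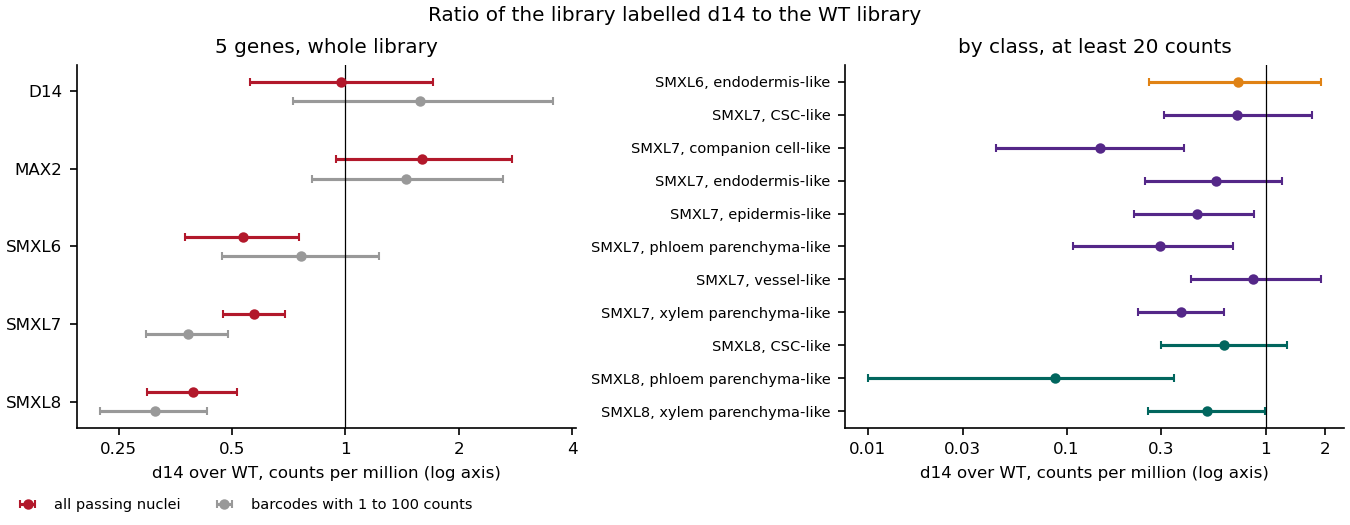
Ratio of CPM in the library labelled d14 to that in WT (log axes), with exact 95% intervals: on the left for each gene in passing nuclei and in barcodes with 1 to 100 counts, on the right by class, for classes with at least 20 counts over both libraries. The intervals of SMXL6 (0.376 to 0.755), SMXL7 (0.473 to 0.693) and SMXL8 (0.298 to 0.515) in passing nuclei lie below 1.

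Other genes of the pathway differed between the libraries as well. Of 30 genes, 28 had a count, 5 had a ratio of at least 2 with an interval above 1 and 3 a ratio of at most 0.5 with an interval below 1, against 2.89% and 2.73% of all genes with 50 or more counts. The median ratio of the 23 pathway genes with 50 or more counts was 0.985, against 1.01 over all such genes. The ratio was 3.90 for D27 (2.17 to 7.52), 5.39 for MAX3 (2.99 to 10.5), 5.28 for MAX4 (4.64 to 6.03), 2.39 for CLAMT (1.52 to 3.84) and 13.7 for LBO (5.09 to 51.6), all of which encode enzymes of strigolactone synthesis. The lower genes were CXE15, which encodes a strigolactone-degrading esterase, at 0.163 (0.089 to 0.281), the D14 relative DLK2 at 0.209 (0.121 to 0.345) and PAP1, a regulator of anthocyanin synthesis, at 0.167 (0.106 to 0.254).

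In single nuclei, 817 of 1588 on the plates (51.4%) and 173 of 2081 in the 10x all hypocotyl library (8.31%) had a count of at least 2 of the 5 genes. On the 6 plates, of 1588 nuclei, 272 had a count of none of the 5 genes, 499 of 1 gene, 477 of 2, 246 of 3, 85 of 4 and 9 of all 5. In the 10x all hypocotyl library 1255 of 2081 nuclei had none, 653 had 1, 151 had 2, 21 had 3, 1 had 4 and 0 had 5, which allows a share of nuclei with a count of all 5 of up to 0.144%. WT had 376 of 684 nuclei with none and 9 with 3, and d14 544 of 822 with none and 2 with 3. SMXL7 was counted in 60.9% of VASA cambium and 61.3% of VASA all hypocotyl nuclei but in 23.3% of nuclei of the 10x all hypocotyl library, and D14 in 7.48%, 10.2% and 7.54%. Thinned to 1200 counts per nucleus, these shares were 25.3 to 28.4% for SMXL7 and 0.685 to 4.31% for D14 over the 6 plates, and 15.5% and 4.37% in the 10x all hypocotyl library. SMXL8 was counted in 6.92% of all nuclei of that library and in 1 of its 88 epidermis-like nuclei.

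Receptor, F-box protein and at least 1 repressor were counted together in 20 of 882 VASA cambium nuclei, 26 of 706 VASA all hypocotyl nuclei, 4 of 2081 nuclei of the 10x all hypocotyl library, 1 of 684 in WT and 0 of 822 in d14. Of the 46 such plate nuclei, 9 were among 113 xylem parenchyma-like, 8 among 109 cortex-like, 5 among 50 phloem parenchyma-like and 1 among 74 companion cell-like nuclei, and 20 were unnamed. All 3 repressors were counted in 63 and 83 nuclei of the gates, 5 of the 10x all hypocotyl library, 6 of WT and 1 of d14. Companion cell-like nuclei held 14 of the 146 plate nuclei with all 3 repressors, out of 74 nuclei of the class, and cortex-like nuclei 3, out of 109.

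Pairs were compared with the number expected from the detection of each gene within 5 depth bins of a library, as a description with no test. SMXL7 and SMXL8 were counted together in 352 plate nuclei against 332 expected, and the ratio lay between 1.01 and 1.12 on 6 of 6 plates. The same pair had 51 nuclei against 36.0 expected in the 10x all hypocotyl library (ratio 1.42), 41 against 28.0 in WT (1.46) and 15 against 11.1 in d14 (1.35). Within clusters of the 10x all hypocotyl library the ratio was 1.21. The other pairs of repressors had 370 plate nuclei against 358 for SMXL6 and SMXL7 and 195 against 188 for SMXL6 and SMXL8. Mean ratios over 6 plates were 1.06 ± 0.048 for SMXL7 and SMXL8, 1.03 ± 0.042 for SMXL6 and SMXL7 and 1.02 ± 0.120 for SMXL6 and SMXL8. MAX2 and SMXL6 had 1.07 ± 0.074. These spreads overlap, so the plates do not set SMXL7 and SMXL8 apart from these pairs.

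D14 and MAX2 were counted together in 54 plate nuclei against 45.4 expected, with a ratio of 1.21 ± 0.243 (mean and SD over 6 plates), and in 10 nuclei of the 10x all hypocotyl library against 10.6. D14 and SMXL8 met in 43 plate nuclei against 49.3 expected, a mean ratio of 0.86 ± 0.184, and in 7 against 11.9 in the 10x all hypocotyl library. Both spreads over plates hold 1. The D14 and SMXL8 ratio turned above 1 within clusters (1.09) and after thinning to equal counts (1.55, on 7 nuclei), so no direction is read from it. D14 and SMXL7 met in 93 plate nuclei against 94.0 expected, and MAX2 met SMXL6 in 181 against 171, SMXL7 in 307 against 303 and SMXL8 in 162 against 160. For D14 and SMXL6 the mean ratio was 1.14 ± 0.201 over 6 plates, a spread that holds 1. Over 5 alternatives in the 10x all hypocotyl library, this pair had ratios of 1.51 to 1.87, and MAX2 and SMXL7 of 1.11 to 1.59. D14 and SMXL7 stayed below 1 there, at 0.759 to 0.989, so SMXL7 and SMXL8 were not the only pair above expectation.

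**Figure D4:**
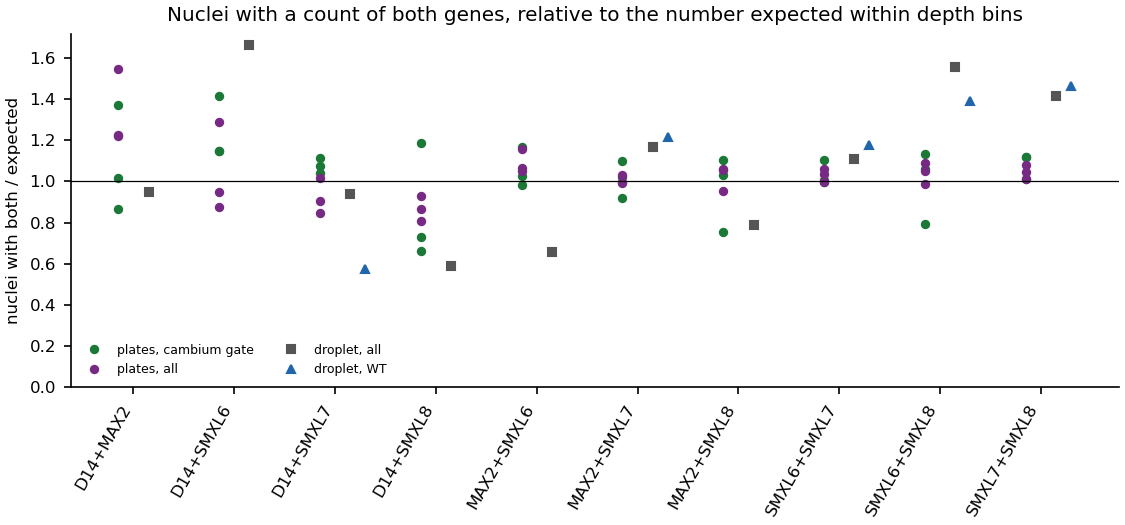
Nuclei with a count of both genes divided by the number expected within depth bins (vertical axis) for the 10 pairs of genes: circles are plates, squares the 10x all hypocotyl library and triangles WT where at least 5 nuclei were expected. SMXL7+SMXL8 lies above 1 on 6 of 6 plates and in both droplet libraries drawn.

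Over the 18 clusters of the plates, SMXL7 and SMXL8 had a correlation of log2(CPM + 10) of 0.849, over the 18 of the 10x all hypocotyl library 0.716 and over the 15 of WT and d14 0.609. D14 and SMXL8 had -0.504 on the plates but 0.200 and 0.160 in the droplet data, and MAX2 and SMXL7 0.547, 0.077 and 0.565. Clusters share libraries and depth, so these are descriptions.

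Of 8377 genes with enough counts, the 3 whose plate cluster levels were most like SMXL8 were AT1G72500 (0.926, and 0.722 over clusters of the 10x all hypocotyl library), SARK (0.911 and 0.690) and AMP1 (0.902 and 0.841). SMXL7 was closest to AMP1 (0.886 and 0.700), AT1G72500 (0.878 and 0.652) and AT3G54390 (0.872 and 0.813), so 2 of the 3 were shared by both repressors. SMXL6 was closest to AT2G12400 (0.833 and 0.778), the karrikin receptor gene KAI2 (0.832 and 0.675) and AT3G26550 (0.818 and 0.595). For MAX2 they were AT2G18860 (0.805 and 0.194), AT3G59040 (0.790 and 0.630) and NUDT22 (0.781 and -0.482), and for D14 XGD1 (0.876 and 0.206), FAB1A (0.871 and -0.219) and YAK1 (0.871 and 0.304). The likeness carried over to the droplet library for the repressors and mostly not for D14 and MAX2. D14 itself had 78 counts on VASA cambium and 91 on VASA all hypocotyl plates. Together these are fewer than the 200 plate counts asked of the compared genes, so its list rests on sparse levels.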

How the data were processed

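Nuclei of 9 libraries were used as deposited. The authors' files hold counts per gene and barcode or well, raw and not normalized. The submitters' processing notes name TAIR10, Cell Ranger 6.0.1, STAR 2.7.8a and Seurat, and the counts include introns. The droplet counts come from transcript 3′ ends, which limits comparison with plates. Nuclei were kept with 1200 to 10000 counts (10x all hypocotyl), 1200 to 15000 (plates) or 1500 to 15000 (WT and d14) and under 20% mitochondrial counts.

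Clusters were made with Seurat 5.3.0 (15 components, resolution 1.8 on plates and 1.2 in droplet data) without the 5 genes and named from marker lists. A cluster needed at least 3 markers raised at least 2-fold. Scrublet (scanpy 1.11.5) called 0 to 5 nuclei per group as doublets, too few to rely on, which were kept, and an alternative dropped the top 5% of scores. Counts summed per plate were tested with edgeR 4.0.16 (quasi-likelihood, TMM, filterByExpr, plate as a term for tissue contrasts), adjusted by Benjamini-Hochberg over all genes at 0.05. DESeq2 1.42.0 was an alternative. The edgeR steps were tested on simulated data and recovered 64% of 2-fold and 100% of 4-fold changes in the gate comparison. WT, d14 and single classes of droplet libraries were not tested. The named genes were the 5 members throughout, pathway genes only where called, and the 3 genes most like each member. The members and lists were chosen with earlier results of these data known. Barcodes shared between WT and d14 were not counted. Other tools were R 4.3.3, Python 3.11.15, numpy 2.4.6, pandas 2.3.3, scipy 1.17.1 and matplotlib 3.10.9.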

Additional observations from a re-analysis of the deposited data

Results flagged for a closer look

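A single plate stood apart from the other 5 in 3 of 20 groups of plate values, where chance gives about 1 in 20. The groups are not independent, since vascular nuclei include the xylem and phloem nuclei. D14 in phloem nuclei was 10.9 CPM (1 count) on VASA cambium replicate 1, the nearest plate being at 29.4 CPM (4 counts). MAX2 in outer nuclei was 9.34 CPM (1 count) on VASA cambium replicate 2, the nearest at 55.4 CPM (6 counts). SMXL6 in vascular nuclei was 79.1 CPM on VASA cambium replicate 1, the nearest at 115 CPM.

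Where both libraries had at least 20 counts over the classes compared, WT and d14 lay on opposite sides of 1 in 3 cases, and the difference was not tested. The ratio of xylem to phloem CPM of SMXL7 was 0.981 in WT (exact interval 0.664 to 1.45) and 1.95 in d14 (1.04 to 3.98). For SMXL8 it was 0.755 (0.432 to 1.31) and 2.68 (0.932 to 10.5), the latter on 4 phloem counts. Vessel-like nuclei made up 22 of 79 xylem nuclei in WT and 80 of 169 in d14. The effect of this mix was not tested. The ratio of vascular to outer CPM of SMXL6 was 1.00 in WT (0.573 to 1.74) and 0.904 in d14 (0.438 to 1.92). Of these intervals only that of SMXL7 in d14 did not hold 1, and it overlapped that of WT. With fewer counts, the D14 ratio of xylem to phloem was 0.929 in WT (2 counts) and 2.78 in d14 (8 counts).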

How the results depend on the processing

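Of 364 alternative values, 334 kept their direction and side of the threshold, or moved by less than their spread or less than 1.5 times for counts, and 30 did not. The number of genes called in the gate comparison, 505, was 1291 without a filter on low counts and 231 to 355 with 1 plate left out. The SMXL8 log2 difference ran from -0.97 to -0.69 with 1 plate left out and was -1.45 in vascular nuclei alone (added after seeing the data). Over its alternatives the adjusted p ran from 1.3e-05 to 0.142. Xylem minus phloem gave 657 called genes, 1497 without a filter and 1097 at a resolution of 1.2, and the MAX2 log2 difference was 0.49 to 0.98 with 1 plate left out. Vascular minus outer gave 2318 called genes and 4116 without a filter. MAX2 there was 0.88 with DESeq2 and 0.55 to 0.95 with 1 plate left out. SMXL8 in d14 relative to WT was 0.534 with at least 2500 counts per nucleus. The causes were not tested, other than the fewer plates or the wider range of genes that these settings bring.

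Plates of the same number share only a number: the correlations of their deviations were 0.144, -0.069 and 0.109, and not every plate correlated best with its own number. With the replicate number as a block in the gate comparison, 574 genes were called and SMXL8 was at -0.87 (edgeR adjusted p = 0.00859). The tissue contrasts without the replicate block of plates called 582 and 2258 genes.

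Co-detection moved in 6 of 110 alternatives. On the plates, thinning to equal counts gave ratios of 0.272 for D14 and SMXL6, 0.541 for D14 and SMXL7, 1.55 for D14 and SMXL8, 1.52 for MAX2 and SMXL6 and 0.863 for MAX2 and SMXL7, and clusters with 3 depth bins gave 1.09 for D14 and SMXL8. For D14 and SMXL6, D14 and SMXL8, and MAX2 and SMXL7 this turned the side of 1. With Spearman correlation, 1 of the 3 genes most like D14, SMXL7 and SMXL8 was shared with the first choice. D14 counts were too few for a tissue test on all plates, and in droplet classes intervals often span several-fold, so smaller differences were not detectable at this depth.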
